A study of Mus musculus with 16 samples.

Results

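The cornified envelope genes were taken by name from a table of 24421 mouse genes. They are every gene whose symbol begins with Lce or Sprr, together with Flg2, Lor, Ivl, Rptn, Hrnr, Tchh, Crnn, Tgm1, Tgm3, Tgm5 and Casp14. That gave 48 genes, and the 46 with at least 10 counts summed over 16 libraries are described here. Flg was named by the same rule and is not analysed here. The other 2 genes, Sprr2a1 and Sprr2a2, held 0 counts in every library, which by counting error alone allows up to 3 counts each. Both are listed with the same span (mm10 chr3:92215835-92257304). How reads in a shared span were counted is not given in the sources used here, so the 0 may set no limit on their level.

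The cornified envelope is the tough protein shell that replaces the plasma membrane of a keratinocyte as it dies and becomes part of the stratum corneum. Its precursors are soluble proteins that transglutaminases cross-link into an insoluble layer. Involucrin and the small proline-rich proteins (Sprr genes) enter early in this process, while loricrin and the late cornified envelope proteins (Lce genes) are made last, in the upper granular layer. In human skin the Sprr2 and LCE3 genes are also known as genes induced when the barrier is injured or inflamed.

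RNA was sequenced from skin of female SKH-1 mice, which lack fur and are widely used to study ultraviolet B (UVB) damage. Exposed mice received 60 mJ/cm2 of UVB 2 times per week, and control mice of the same strain were unexposed. The 8 groups are epidermis of exposed mice at weeks 2, 15 and 25, epidermis of control mice at the same weeks, tumors of exposed mice at week 25, and whole skin of control mice at week 25. Each group has 2 libraries, numbered 0 and 1 as in the labels. Mouse age, how epidermis was separated and tumor histology are not given in the labels. They also leave unstated whether libraries 0 and 1 are different mice. The p-values therefore only set differences against the scatter of these particular samples, pooled over the groups fitted together, and that scatter may be technical.

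The early class holds 16 Sprr genes, of which 14 are described, and the late class holds 21 Lce genes: 14 Lce1 genes, 6 Lce3 genes and Lce6a. Beside them stand involucrin (Ivl), loricrin (Lor), 5 genes of S100 fused-type proteins (Flg2, Hrnr, Rptn, Tchh and Crnn), the transglutaminase genes Tgm1, Tgm3 and Tgm5, and Casp14, whose caspase takes part in filaggrin breakdown. Of the 48 genes, 44 lie within 1.37 Mb of chromosome 3 (chr3:92080271-93449077), the epidermal differentiation complex. In that interval the Sprr2 genes form a run of 149 kb, 13 Lce1 genes a run of 205 kb, and the Lce3 genes a run of 68.1 kb (chr3:92925287-92993426). The Lce3 run begins 74 kb beyond Lce1l and ends 24.4 kb before Lce1m, so it sits between members of the Lce1 group.

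Libraries held 2905165 (week 2 control 1) to 7959503 counts (whole skin control 0), with the next lowest at 4854612. Levels are given as CPM, the counts scaled to a common library size and adjusted for library composition. Duplicate reads had been removed before counting, and the highest gene of 500 bases or more in each library had 1.83 to 2.11 counts per base of exon. Several of the genes described came near that ceiling. Lce1f, the most abundant Lce1 gene per base, had 1.58 to 1.74 counts per base in the 12 epidermis libraries, and its counts differed 1.10-fold between the highest and the lowest although depth differed 2.47-fold. Differences of such genes can therefore be understated, and their CPM can stand too high in a shallow library. Lce3c, the most abundant Lce3 gene per base, ranged from 0.112 to 0.966 counts per base in epidermis and Sprr2d, its Sprr2 counterpart, from 0.389 to 1.20. Ivl, Sprr1a and Sprr4 averaged 0.923, 1.16 and 0.847 counts per base over the 16 libraries, Rptn 0.725 and Tgm1 0.730. Sprr1b averaged 1.03 and had 0.382 to 1.56 counts per base in epidermis, so its difference can be understated as well. Casp14 had 1.21 to 1.69 counts per base in epidermis, with counts that differed 1.40-fold between libraries, and Lor had 0.815 to 1.09 with counts that differed 1.34-fold, so their differences are limited in the same way. The Sprr2 genes, and the Lce1 and Lce3 genes within each group, are close in sequence, so reads may be split among them and single-gene values are uncertain.

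**Figure D1:**
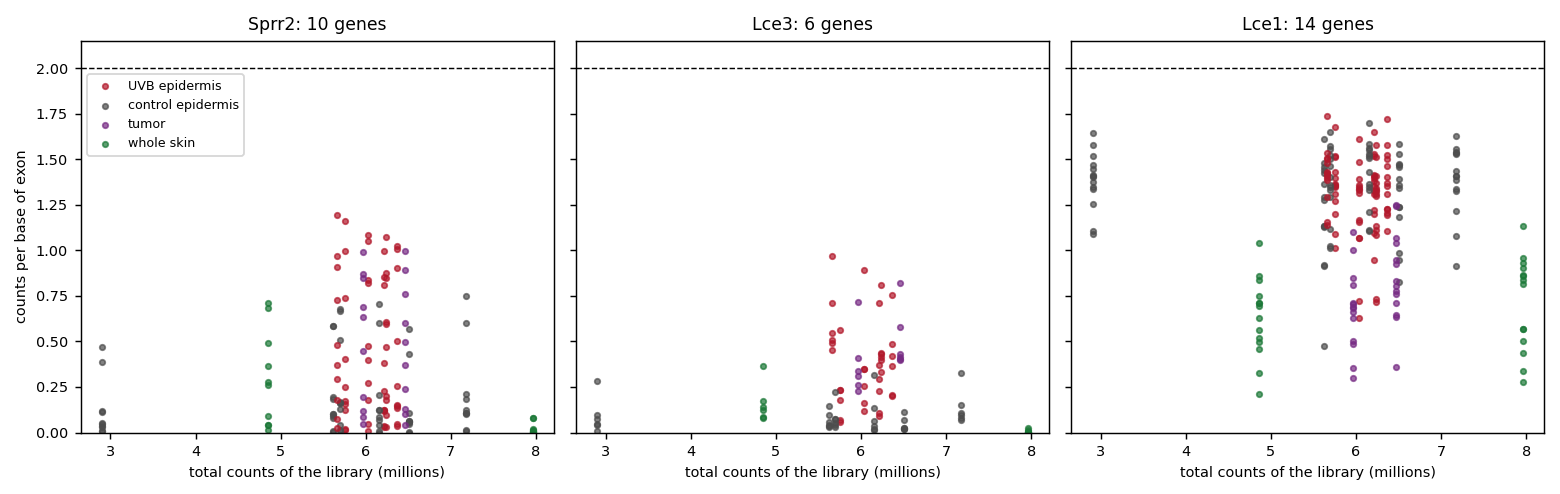
Counts per base of exon of each Sprr2, Lce3 and Lce1 gene (1 point per gene and library) against the library's total counts. The dashed line marks 2 counts per base. Lce1 genes in epidermis lie between 0.475 and 1.74 counts per base, and Lce3 genes between 0.00911 and 0.966.

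Libraries within a group differed beyond sampling noise in every group, with a chi-square per degree of freedom of 4.82 (tumor) to 48.9 (whole skin). The whole skin controls stood apart from each other, since the CPM of the summed Sprr2 genes was 22.9 times and that of the summed Lce3 genes 31.8 times as high in control 1 as in control 0. At week 2 the shallow control 1 had 2.25 times the summed Lce1 CPM of control 0, with 14037 counts against 13866. For some of the counts and calls that these libraries decide, the value without them is given beside the result.

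The first question was which envelope genes differed between UVB-exposed and control epidermis over the 3 weeks. With week as an additive term, 18 of 46 genes rose and 6 fell at an adjusted p under 0.05 (edgeR's quasi-likelihood test, Benjamini-Hochberg adjustment over all 13478 genes tested). Across all genes tested 14.4% rose and 15.1% fell, 29.5% in either direction. The genes that rose were 9 of 10 Sprr2 genes, all 6 Lce3 genes, Sprr1b, Sprr3 and Rptn. Those that fell were Crnn, Tchh, Flg2, Hrnr, Ivl and Sprr4. No Lce1 gene was called in either direction. The median log2 difference was 2.18 over the Lce3 genes, 1.23 over the Sprr2 genes and -0.31 over the Lce1 genes, against -0.02 over all genes. The Lce1 median rests in part on the shallow control 1 of week 2. Reads of bulk tissue do not separate fewer cells of a type from less RNA per cell. Counting all 6 libraries of each arm, 9 genes lay wholly above the controls and 2 wholly below them, where 5.14% and 4.33% of all genes did so. Without week 25, 14 genes were called, 11 higher and 3 lower. Macrophage markers moved with these results: 5 of 8 tested rose and 0 fell, their summed level was 63.5 to 152 CPM in UVB and 32.6 to 57.9 CPM in control epidermis, and none was at 0 in either arm. Of 6 T cell markers tested 3 fell and 0 rose, with sums of 19.1 to 58.4 CPM in UVB and 39.9 to 125 CPM in control epidermis. Their part in the result was not tested.

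**Figure D2:**
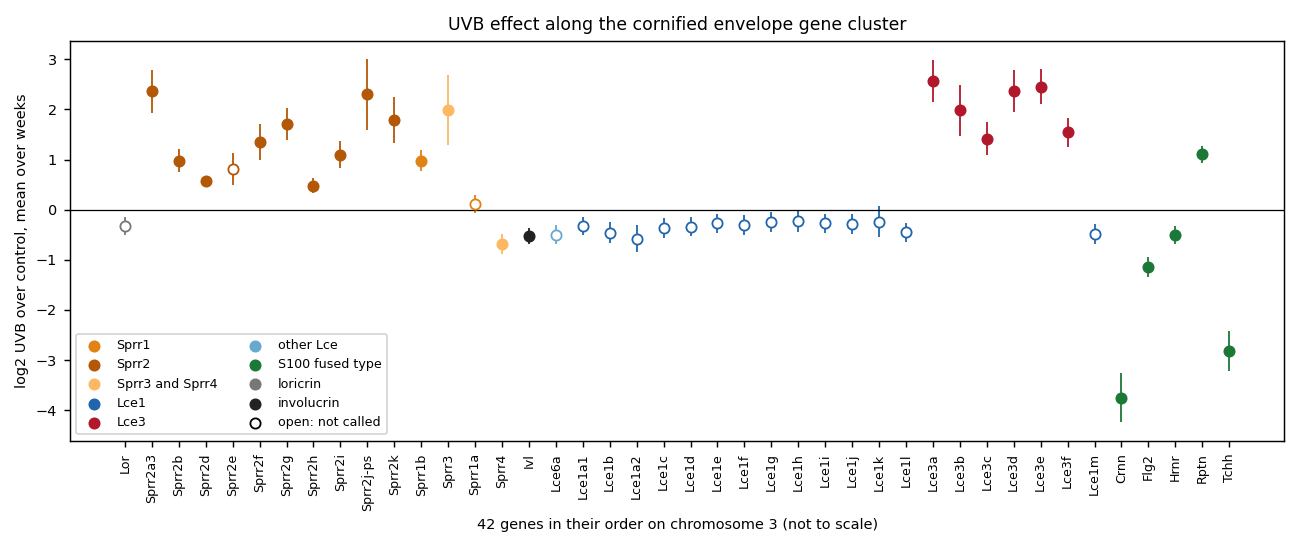
Log2 difference between UVB and control epidermis, as the mean over weeks, of the 42 described genes on chromosome 3 in their order along it. Bars are standard errors, filled points passed the adjusted threshold and open points did not. The Sprr2 and Lce3 runs stand above 0, the Lce1 genes on both sides of Lce3 lie at -0.58 to -0.22, and Crnn and Tchh lie lowest.

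Because the Sprr2 and Lce3 genes moved as groups, while their Lce1 neighbors did not pass the test, the 250 bases before the start of each gene were read from RefSeq (GRCm38.p6). An entry matched 43 of the 46 genes. Motifs were searched on both strands. TGANTCA stood for the AP-1 site and TATAAA for the TATA box. A variant of the box was searched for with the letters ATAAAA. The STAT motif was TTCNNNGAA. For C/EBP the letters were TTGCNNAA, and an IRF motif was searched as well. The TATA box and its variant can overlap. The following sequences, 5′ to 3′ on the gene's strand, show a pair of Lce3 genes that rose, an Lce1 gene not called over the weeks, and an Sprr2 and an Sprr1 gene that rose. Capitals mark matches to the AP-1 motif, the TATA box or its variant on either strand.
Lce3d: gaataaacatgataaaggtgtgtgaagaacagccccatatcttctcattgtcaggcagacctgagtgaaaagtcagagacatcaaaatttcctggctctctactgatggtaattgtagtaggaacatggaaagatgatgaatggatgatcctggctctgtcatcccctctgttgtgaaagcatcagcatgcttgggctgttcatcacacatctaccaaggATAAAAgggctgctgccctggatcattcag
Lce3e: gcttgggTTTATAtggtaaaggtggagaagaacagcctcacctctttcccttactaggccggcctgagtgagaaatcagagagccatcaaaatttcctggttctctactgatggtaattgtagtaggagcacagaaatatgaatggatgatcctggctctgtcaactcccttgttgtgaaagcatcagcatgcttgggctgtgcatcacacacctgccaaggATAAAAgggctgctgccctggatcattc
Lce1b: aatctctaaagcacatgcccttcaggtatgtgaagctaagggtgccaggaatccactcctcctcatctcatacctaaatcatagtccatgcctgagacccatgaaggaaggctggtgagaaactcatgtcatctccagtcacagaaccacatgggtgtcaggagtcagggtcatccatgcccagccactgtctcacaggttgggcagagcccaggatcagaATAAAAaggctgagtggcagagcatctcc
Sprr2d: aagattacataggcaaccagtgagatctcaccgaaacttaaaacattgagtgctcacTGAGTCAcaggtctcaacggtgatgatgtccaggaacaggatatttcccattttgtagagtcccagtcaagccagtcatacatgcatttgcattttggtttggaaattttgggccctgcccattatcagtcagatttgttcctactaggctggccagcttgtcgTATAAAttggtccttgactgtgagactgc
Sprr1b: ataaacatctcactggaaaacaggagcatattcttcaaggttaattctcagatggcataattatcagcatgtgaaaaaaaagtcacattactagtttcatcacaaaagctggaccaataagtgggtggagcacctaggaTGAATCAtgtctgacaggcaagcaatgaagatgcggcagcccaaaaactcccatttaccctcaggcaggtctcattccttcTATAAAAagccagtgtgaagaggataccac
They lie at chr3:92957140-92957389 and chr3:92966811-92967060 (plus strand), chr3:92656927-92657176 (minus strand), chr3:92338890-92339139 (plus strand) and chr3:92438780-92439029 (minus strand).

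TGANTCA was found before 7 of 8 Sprr2 genes and 2 of 2 Sprr1 genes, but before 0 of 6 Lce3 and 0 of 13 Lce1 genes, and in 6.75% of 32851 RefSeq promoters of this length. In Sprr2d it lay 193 bases before the start, and in the other Sprr2 genes with a match a copy lay at 193 to 198 bases. Sprr2a3, the Sprr2 gene with the largest difference, had no match in its window. TATAAA was found before 7 of 8 Sprr2 genes, 29 bases before the start, and in 12.4% of all promoters. The box was also found before 2 of 2 Sprr1, 1 of 6 Lce3 and 2 of 13 Lce1 genes. Further matches lay before Crnn, Hrnr and Ivl, which fell, Rptn and Sprr3, which rose, and Lor, Lce6a and Tgm3, which were not called. The variant ATAAAA was found before all 6 Lce3 genes and 12 of 13 Lce1 genes, and also before 3 of 8 Sprr2 and 2 of 2 Sprr1 genes, against 17.0% of all promoters. Among the S100 fused-type genes TGANTCA was found before Crnn, Flg2 and Rptn, of which 2 fell and 1 rose. It was also found before Ivl, which fell, and Lor, which was not called. The other motifs were each found before at most 1 Sprr2 gene, 1 Lce3 gene and 1 Lce1 gene, and in 7.02% (STAT), 9.56% (C/EBP) and 2.98% (IRF) of all promoters. Genes within the Sprr2, Lce1 and Lce3 groups are close in sequence, so matches within a group may not be separate observations. Such matches describe these letters and do not show binding.

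Among the early genes 9 of 10 Sprr2 genes rose over the weeks. Sprr2a3 stood at 118 and 122 CPM in UVB and 82.1 and 11 CPM in control epidermis at week 2. It stood at 108 and 119 CPM in UVB and 16.8 and 28 CPM in control epidermis at week 15. At week 25 it had 114 and 138 CPM in UVB and 7.08 and 13.2 CPM in control epidermis. All UVB libraries were above all controls, and control 0 of week 2 was the highest control by a wide margin. The mean over weeks was 2.36 ± 0.44, adjusted p = 0.00204 on the log2 scale. Sprr2g had 49.1 and 94.5 CPM in UVB and 19.8 and 32.6 CPM in control epidermis at week 2. It had 38.7 and 50.5 CPM in UVB and 25.2 and 13 CPM in control epidermis at week 15, and 60.1 and 84.4 CPM in UVB and 6.4 and 18.5 CPM in control epidermis at week 25. The arms of Sprr2g did not overlap either (1.72 ± 0.32, adjusted p = 0.00209).

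Sprr2d, the most abundant Sprr2 gene per base, had 149 and 128 CPM in UVB and 86.3 and 112 CPM in control epidermis at week 2. It had 106 and 106 CPM in UVB and 78.5 and 77 CPM in control epidermis at week 15. At week 25 it had 111 and 145 CPM in UVB and 65.2 and 78.3 CPM in control epidermis. Only control 1 of week 2 reached into the UVB range, and the difference was small but passed the test (0.57 ± 0.11, adjusted p = 0.00311). Sprr2b had 20.3 and 21.7 CPM in UVB and 5.32 and 10.2 CPM in control epidermis at week 2. It had 13.6 and 16.1 CPM in UVB and 12.2 and 9.65 CPM in control epidermis at week 15, without overlap at either week. Over the weeks Sprr2b rose by 0.98 ± 0.23, Sprr2i by 1.10 ± 0.26, Sprr2f by 1.36 ± 0.36 and Sprr2k by 1.79 ± 0.45. Sprr2h rose by 0.48 ± 0.15 and the pseudogene Sprr2j-ps by 2.30 ± 0.71, and each of these 2 calls was lost under 8 of 21 alternatives. Sprr2e was the 1 Sprr2 gene not called (0.82 ± 0.31, adjusted p = 0.0688).

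Of the Sprr1 pair Sprr1b was called over the weeks and Sprr1a was not. Sprr1b had 225 and 221 CPM in UVB and 116 and 158 CPM in control epidermis at week 2. It had 189 and 189 CPM in UVB and 63.9 and 104 CPM in control epidermis at week 15, and 187 and 219 CPM in UVB and 52.8 and 132 CPM in control epidermis at week 25. All UVB libraries exceeded all controls (0.98 ± 0.20, adjusted p = 0.00385). Sprr1a, the more abundant of the pair per base, had 169 and 183 CPM in UVB and 195 and 309 CPM in control epidermis at week 2. It had 162 and 165 CPM in UVB and 151 and 119 CPM in control epidermis at week 15, and 181 and 207 CPM in UVB and 130 and 116 CPM in control epidermis at week 25. The arms of Sprr1a overlapped, with the controls higher at week 2 and lower at weeks 15 and 25, and the mean over weeks was 0.12 ± 0.18, adjusted p = 0.662. In UVB epidermis Sprr1b had 1.46 to 1.56 counts per base, so the duplicate ceiling can understate its rise. The difference between the 2 genes was not tested.

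Sprr3, better known from mouth and esophagus, was near the limit of detection. It had 2.9 and 1.96 CPM in UVB and 0.169 and 0.462 CPM in control epidermis at week 25 and no more than 0.423 CPM in any epidermis library of weeks 2 and 15. Its rise over the weeks (1.99 ± 0.70, adjusted p = 0.0482) was lost under 15 of 20 alternatives. Sprr4 fell (-0.68 ± 0.20, adjusted p = 0.0214), with 30.3 and 29.8 CPM in UVB and 55.9 and 57.5 CPM in control epidermis at week 2. At week 15 it had 31.9 and 22.6 CPM in UVB and 55.2 and 22.8 CPM in control epidermis, which overlapped, and at week 25 25.3 and 22 CPM in UVB and 38.3 and 30.3 CPM in control epidermis. The call of Sprr4 was lost under 6 of 21 alternatives. Ivl, the early scaffold of the envelope, had 460 and 263 CPM in UVB and 467 and 568 CPM in control epidermis at week 2. It had 337 and 402 CPM in UVB and 525 and 392 CPM in control epidermis at week 15, and 211 and 320 CPM in UVB and 430 and 410 CPM in control epidermis at week 25. Its arms overlapped at week 15 only, and its fall (-0.52 ± 0.16, adjusted p = 0.0261) was lost under 9 of 21 alternatives.

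**Figure D3:**
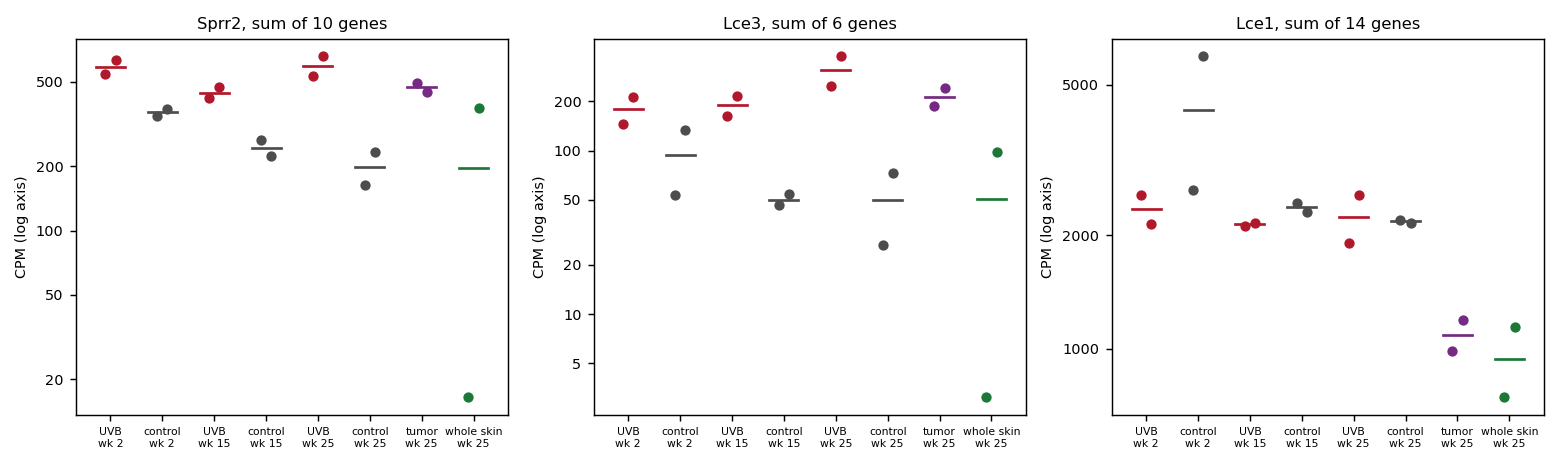
Summed CPM of the Sprr2, Lce3 and Lce1 genes in each library (points, log axis) with the group mean (bar). Sprr2 and Lce3 sums are higher in UVB than in control epidermis at every week, and the Lce1 sums differ little apart from the shallow control 1 of week 2.

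Among the late genes the Lce3 group rose and the Lce1 group did not pass the test. Summed over the 6 Lce3 genes, levels were 145 and 213 CPM in UVB and 53.6 and 134 CPM in control epidermis at week 2. They were 162 and 217 CPM in UVB and 46.3 and 53.9 CPM in control epidermis at week 15, and 248 and 376 CPM in UVB and 26.3 and 72.8 CPM in control epidermis at week 25. No control library reached the UVB libraries of its own week. Lce3e had 20.7 and 26.9 CPM in UVB and 5.89 and 10.6 CPM in control epidermis at week 2. It had 21.4 and 34.4 CPM in UVB and 3.94 and 3.54 CPM in control epidermis at week 15, and 31 and 55.1 CPM in UVB and 2.53 and 8.77 CPM in control epidermis at week 25. The 6 UVB libraries all lay above the 6 controls, and the difference was 2.46 ± 0.34, adjusted p = 0.000543.

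Lce3a had 7.15 and 11.4 CPM in UVB and 3.42 and 2.11 CPM in control epidermis at week 2. It had 7.97 and 17.7 CPM in UVB and 3.75 and 1.13 CPM in control epidermis at week 15, and 33.6 and 48.4 CPM in UVB and 1.85 and 5.69 CPM in control epidermis at week 25. Its arms did not overlap, and the UVB libraries of week 25 were the highest (2.57 ± 0.41, adjusted p = 0.00104). Lce3d had 24.4 and 33.8 CPM in UVB and 7.79 and 17.8 CPM in control epidermis at week 2. It had 32.5 and 42.1 CPM in UVB and 6.51 and 5.47 CPM in control epidermis at week 15, and 35.5 and 70.8 CPM in UVB and 1.85 and 9.08 CPM in control epidermis at week 25. These arms did not overlap either (2.37 ± 0.42, adjusted p = 0.00156). Lce3f had 26.7 and 37.1 CPM in UVB and 8.55 and 24.5 CPM in control epidermis at week 2. It had 28.1 and 39.7 CPM in UVB and 11.4 and 13.2 CPM in control epidermis at week 15, and 40.3 and 59.4 CPM in UVB and 7.25 and 14.3 CPM in control epidermis at week 25. The lowest UVB library was just above the highest control, again control 1 of week 2 (1.54 ± 0.29, adjusted p = 0.00243). Lce3c, the most abundant of the group per base, had 59.6 and 87.4 CPM in UVB and 23.8 and 67.7 CPM in control epidermis at week 2. It had 62.6 and 66 CPM in UVB and 16.2 and 28.8 CPM in control epidermis at week 15, and 69.9 and 97.3 CPM in UVB and 10.6 and 28.2 CPM in control epidermis at week 25. Only control 1 of week 2 reached the UVB range, and Lce3c rose (1.42 ± 0.33, adjusted p = 0.00727). Lce3b had 6.02 and 16 CPM in UVB and 4.18 and 11.4 CPM in control epidermis at week 2, and 37.5 and 45.3 CPM in UVB and 2.19 and 6.77 CPM in control epidermis at week 25. Its lowest UVB library, at week 2, lay below the control 1 libraries of weeks 2 and 25, and Lce3b rose (1.98 ± 0.50, adjusted p = 0.0114).

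The 14 Lce1 genes had log2 differences of -0.58 to -0.22 over the weeks, and the UVB and control arms of each overlapped. Their summed level was 2560 and 2140 CPM in UVB and 2640 and 5940 CPM in control epidermis at week 2. It was 2120 and 2150 CPM in UVB and 2440 and 2310 CPM in control epidermis at week 15, and 1910 and 2560 CPM in UVB and 2200 and 2150 CPM in control epidermis at week 25. Apart from control 1 of week 2 the epidermis libraries lay close together, so the log2 differences over the weeks rest in part on that library. Values of the Lce1 genes over the weeks without it are not given here. At week 2 alone Lce1m, Lce1b and Lce1l were called lower in UVB epidermis. Lce1m had 209 and 177 CPM in UVB and 250 and 537 CPM in control epidermis at week 2 (-1.06 ± 0.29, adjusted p = 0.0307). Without control 1 its log2 difference was -0.38 with an adjusted p of 0.192, and those of Lce1b and Lce1l were -0.35 (adjusted p = 0.38) and -0.24 (adjusted p = 0.426), and each of the 3 calls was also lost when 1 of the UVB libraries of that week was left out. Lce1b had 164 and 120 CPM in UVB and 180 and 385 CPM in control epidermis at week 2. Lce1f, the most abundant Lce1 gene per base, had 226 and 201 CPM in UVB and 225 and 499 CPM in control epidermis at week 2. It had 185 and 191 CPM in UVB and 228 and 196 CPM in control epidermis at week 15, and 172 and 223 CPM in UVB and 191 and 180 CPM in control epidermis at week 25. Its arms overlapped (-0.31 ± 0.19, adjusted p = 0.253). Under an estimate that corrects for the ceiling, Lce1m was the 1 Lce1 gene called over the weeks (-0.62 ± 0.22, adjusted p = 0.0453). Lce6a had a log2 difference over the weeks of -0.50 ± 0.19, adjusted p = 0.0713. Lor, whose protein is the main mass of the envelope, had a log2 difference of -0.32 ± 0.18, adjusted p = 0.202, and neither was called.

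**Figure D4:**
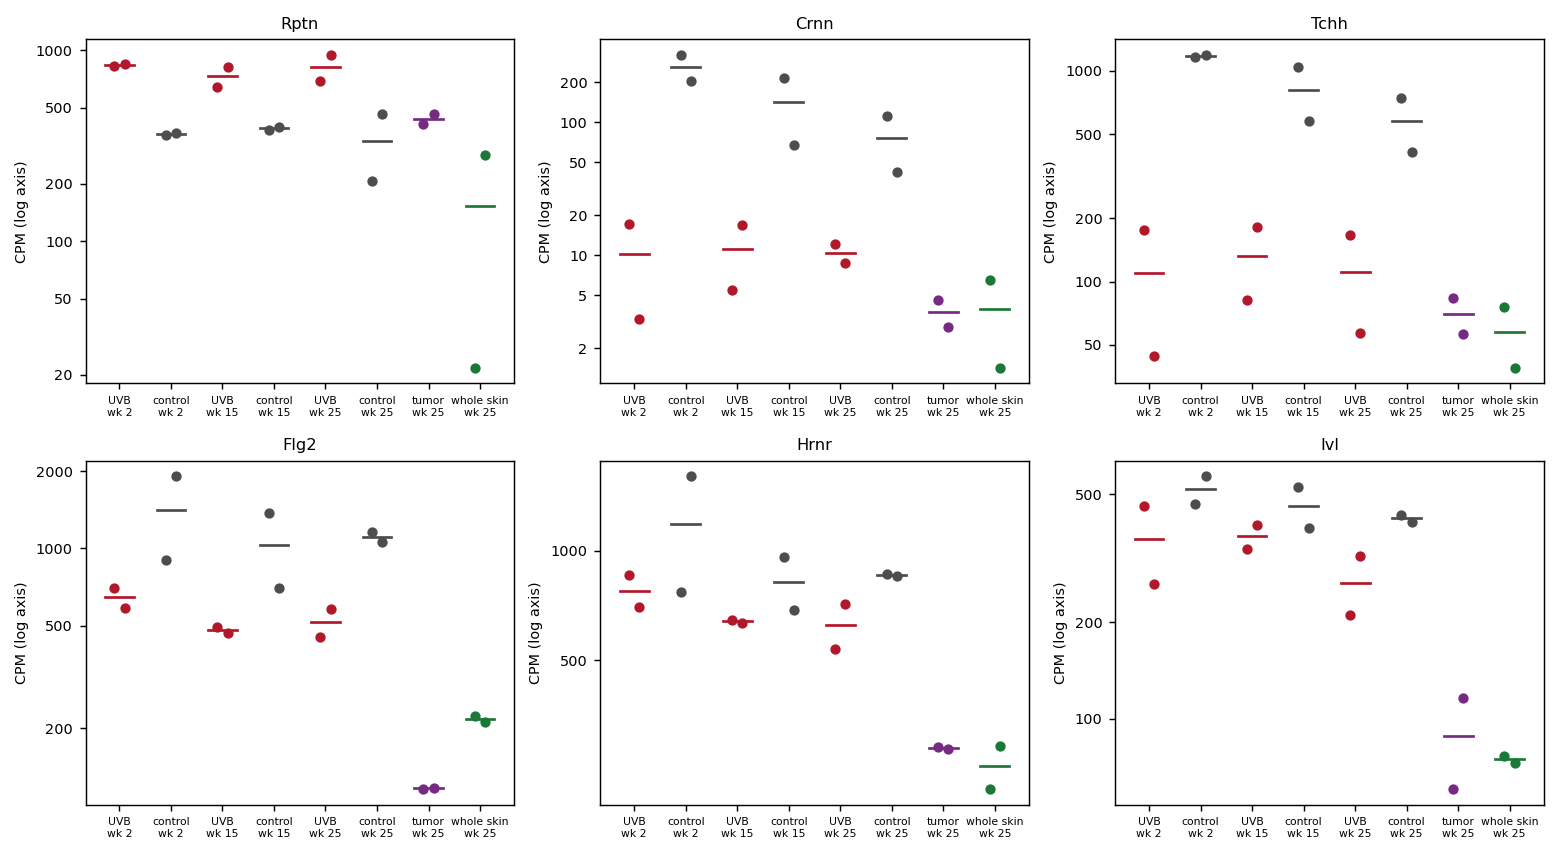
CPM (log axis) of 5 S100 fused-type genes and Ivl in each library (points), with the group mean (bar). Rptn is higher and Crnn and Tchh are lower in every UVB epidermis library than in every control epidermis library.

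Of the 5 S100 fused-type genes 1 rose and 4 fell. Crnn, which encodes cornulin, had 17.1 and 3.3 CPM in UVB and 319 and 203 CPM in control epidermis at week 2. It had 5.47 and 17 CPM in UVB and 214 and 67.4 CPM in control epidermis at week 15, and 12.2 and 8.74 CPM in UVB and 111 and 42 CPM in control epidermis at week 25. Every UVB library lay far below every control, and the fall was the largest of all envelope genes tested over the weeks (-3.75 ± 0.50, adjusted p = 0.00042). Tchh, the gene of trichohyalin, a protein of the inner root sheath of the hair follicle, had 176 and 44.4 CPM in UVB and 1170 and 1190 CPM in control epidermis at week 2. It had 82 and 182 CPM in UVB and 1040 and 580 CPM in control epidermis at week 15, and 166 and 57.3 CPM in UVB and 744 and 413 CPM in control epidermis at week 25. The arms of Tchh did not overlap (-2.83 ± 0.40, adjusted p = 0.000534). Hair follicle markers moved with both genes. Of 22 listed hair follicle genes 20 fell and 0 rose, their summed level was 344 to 833 CPM in UVB and 1410 to 4640 CPM in control epidermis, and none was at 0 in either arm. Their part in the result was not tested.

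Flg2, a filaggrin-like protein of the stratum corneum, had 705 and 586 CPM in UVB and 905 and 1910 CPM in control epidermis at week 2. It had 495 and 471 CPM in UVB and 1370 and 702 CPM in control epidermis at week 15, and 453 and 584 CPM in UVB and 1160 and 1060 CPM in control epidermis at week 25. Only the highest UVB library and the lowest control overlapped, and Flg2 fell (-1.14 ± 0.20, adjusted p = 0.00152). Hrnr, the gene of hornerin, had 856 and 699 CPM in UVB and 770 and 1600 CPM in control epidermis at week 2. It had 646 and 633 CPM in UVB and 958 and 686 CPM in control epidermis at week 15, and 538 and 715 CPM in UVB and 864 and 851 CPM in control epidermis at week 25. Its arms overlapped across the weeks, and the fall (-0.50 ± 0.17, adjusted p = 0.0443) was lost under 12 of 21 alternatives. Rptn, which encodes repetin, had 833 and 852 CPM in UVB and 361 and 370 CPM in control epidermis at week 2. It had 645 and 820 CPM in UVB and 383 and 398 CPM in control epidermis at week 15, and 695 and 945 CPM in UVB and 207 and 467 CPM in control epidermis at week 25. All UVB libraries lay above all controls, and Rptn rose (1.11 ± 0.17, adjusted p = 0.000892), so it was the 1 member of its class with that direction.

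None of the 3 transglutaminase genes was called over the weeks. Tgm1, the main transglutaminase of the keratinocyte membrane, had 558 and 530 CPM in UVB and 516 and 675 CPM in control epidermis at week 2. It had 386 and 389 CPM in UVB and 511 and 368 CPM in control epidermis at week 15, and 369 and 451 CPM in UVB and 482 and 459 CPM in control epidermis at week 25. The arms overlapped, and the mean over weeks was -0.20 ± 0.11, adjusted p = 0.195. The log2 difference of Tgm5 was 0.15 ± 0.12, adjusted p = 0.337. Tgm3, a transglutaminase of the upper epidermis and hair, had 352 and 319 CPM in UVB and 216 and 99.4 CPM in control epidermis at week 2. It was called at week 2 (1.05 ± 0.28, adjusted p = 0.0296) but not over the weeks (0.52 ± 0.19, adjusted p = 0.063). Without the shallow control 1, the lower of the week 2 controls, the log2 difference of Tgm3 at week 2 was 0.62 (adjusted p = 0.0927), and the call was lost under 4 of 12 alternatives. The log2 difference of Casp14 was -0.30 ± 0.14, adjusted p = 0.117. Missing the threshold does not show that these levels were equal.

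Week by week, 3 genes rose and 5 fell at week 2, where 17.8% of all genes tested were called, 8.09% up and 9.74% down. At week 15 the numbers were 2 and 1, against 3.49% of all genes, 1.85% up and 1.64% down. At week 25 they were 19 and 2, against 21.5%, 10.6% up and 10.9% down. The genes that rose at week 2 were Sprr2b (1.47 ± 0.36, adjusted p = 0.0196), Rptn and Tgm3. The calls of Sprr2b and Rptn at week 2 were lost under 5 and 4 of 12 alternatives. At week 15 Lce3e (2.88 ± 0.54, adjusted p = 0.0244) and Lce3d (2.63 ± 0.59, adjusted p = 0.0417) rose and Crnn fell (-3.65 ± 0.78, adjusted p = 0.035). At week 25 all 10 Sprr2 genes, all 6 Lce3 genes, Sprr1b, Sprr3 and Rptn rose, led by Sprr2a3 (3.59 ± 0.63, adjusted p = 0.00554) and Lce3a (3.39 ± 0.60, adjusted p = 0.00575), while Crnn and Tchh fell. The log2 difference was above 0 at each of the 3 weeks for all 10 Sprr2 and all 6 Lce3 genes. Leaving out 1 of the 4 libraries took the count of week 25 to 8 (UVB 0), 7 (UVB 1), 4 (control 0) or 14 (control 1). For week 2 it was 2 (UVB 0), 0 (UVB 1), 25 (control 0) or 4 (control 1), and for week 15 it was 1 (UVB 0), 0 (UVB 1), 0 (control 0) or 6 (control 1). At week 25 the summed fibroblast markers were 89.9 to 257 CPM in UVB and 33.1 to 46.7 CPM in control epidermis, with 6 of 8 tested called up, and the macrophage markers 117 to 152 CPM in UVB and 32.6 to 35.6 CPM in control epidermis, with 6 of 8 up. Mfap5 was at 0 in UVB epidermis of week 25. Their part in the results of that week was not tested.

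Whether the UVB effect itself changed between weeks was tested as an interaction. For week 15 minus week 2, edgeR called 0 of 46 genes and 0.0% of all genes, DESeq2 also called 0, and 2 genes, Sprr1a and Lce1k, had an unadjusted p under 0.05. Without control 0 of week 2 the count was 15. Lce1k had 126 and 72 CPM in UVB and 128 and 305 CPM in control epidermis at week 2, and 97.9 and 123 CPM in UVB and 62.1 and 118 CPM in control epidermis at week 15. Sprr2k had 2.07 and 1.04 CPM in UVB and 0.76 and 1.69 CPM in control epidermis at week 2, and 2.81 and 3.56 CPM in UVB and 0.197 and 0.804 CPM in control epidermis at week 15. For week 25 minus week 2 it called 1 gene, Sprr1a (1.18 ± 0.30, adjusted p = 0.0398), where 7.92% of all genes were called, 3.33% up and 4.59% down. Without control 0 of week 2 the count was 21, and it was 0 without any 1 of the UVB libraries of weeks 2 and 25 or the controls of week 25. Sprr2a3 (2.32 ± 0.82, adjusted p = 0.101), Lce3b (2.60 ± 0.94, adjusted p = 0.107), Tgm3 (adjusted p = 0.132), Lce1j (0.99 ± 0.43, adjusted p = 0.161) and Lce3d (2.00 ± 0.82, adjusted p = 0.144) did not pass. Tgm3 had 272 and 273 CPM in UVB and 214 and 301 CPM in control epidermis at week 25. Lce1j had 172 and 159 CPM in UVB and 171 and 395 CPM in control epidermis at week 2, and 141 and 184 CPM in UVB and 139 and 142 CPM in control epidermis at week 25. The larger number of genes called at week 25 than at week 2 is therefore not shown to be a larger effect for the Sprr2 or Lce3 genes. In control epidermis alone, week 25 over week 2, 0 genes rose and 5 fell, against 13.7% of all genes called, 8.47% up and 5.24% down. They were Sprr1a (-1.04 ± 0.22, adjusted p = 0.0174), Sprr2h (-0.98 ± 0.23, adjusted p = 0.0254), Sprr2a3 (-2.25 ± 0.62, adjusted p = 0.0409), Lce6a (-1.05 ± 0.31, adjusted p = 0.0479) and Lce1e (-1.01 ± 0.30, adjusted p = 0.0483). Sprr2a3 had 7.08 and 13.2 CPM at week 25 and 82.1 and 11 CPM at week 2. Without control 0 of week 2 its log2 difference was -0.09 (adjusted p = 0.9), so its call rests on that library. Sprr2h had 53.9 and 68.9 CPM at week 25 and 96.5 and 148 CPM at week 2. Lce6a had 144 and 135 CPM at week 25 and 177 and 398 CPM at week 2. Lce1e had 148 and 146 CPM at week 25 and 180 and 414 CPM at week 2, where the shallow control 1 was the highest library for both Lce genes. Without that library the count was 1, without control 0 of week 2 it was 23, and without either control of week 25 it was 0.

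Of 21 tested partners and lamellar proteins 0 rose and 2 fell over the weeks, the plakin Ppl (-0.51 ± 0.13, adjusted p = 0.0108) and Scel, the gene of sciellin (-0.39 ± 0.11, adjusted p = 0.0163). Of 21 genes of filaggrin processing and desquamation 1 rose and 4 fell, among them the peptidylarginine deiminase genes Padi3 (-3.94 ± 0.57, adjusted p = 0.000626), also a hair follicle gene, and Padi1 (-1.92 ± 0.30, adjusted p = 0.000915). Of 14 lipid envelope genes 0 rose and 4 fell, led by the lipoxygenase gene Alox12b (-0.60 ± 0.12, adjusted p = 0.00302). Of 24 regulators of terminal differentiation 3 rose and 8 fell. The transcription factor gene Pou2f3 fell by 0.42 on the log2 scale (adjusted p = 0.00247). Of 6 stress keratins and alarm proteins 5 rose and 0 fell, including Krt6a (0.93 ± 0.14, adjusted p = 0.000882), the keratin of wounded and thickened epidermis. The median log2 difference of the stress keratin list was 0.59 and that of the envelope partners -0.21, against -0.02 over all genes. These counts stand beside 14.4% of all genes that rose and 15.1% that fell, and the shares of the partner and filaggrin processing lists that fell are near that background.

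**Figure D5:**
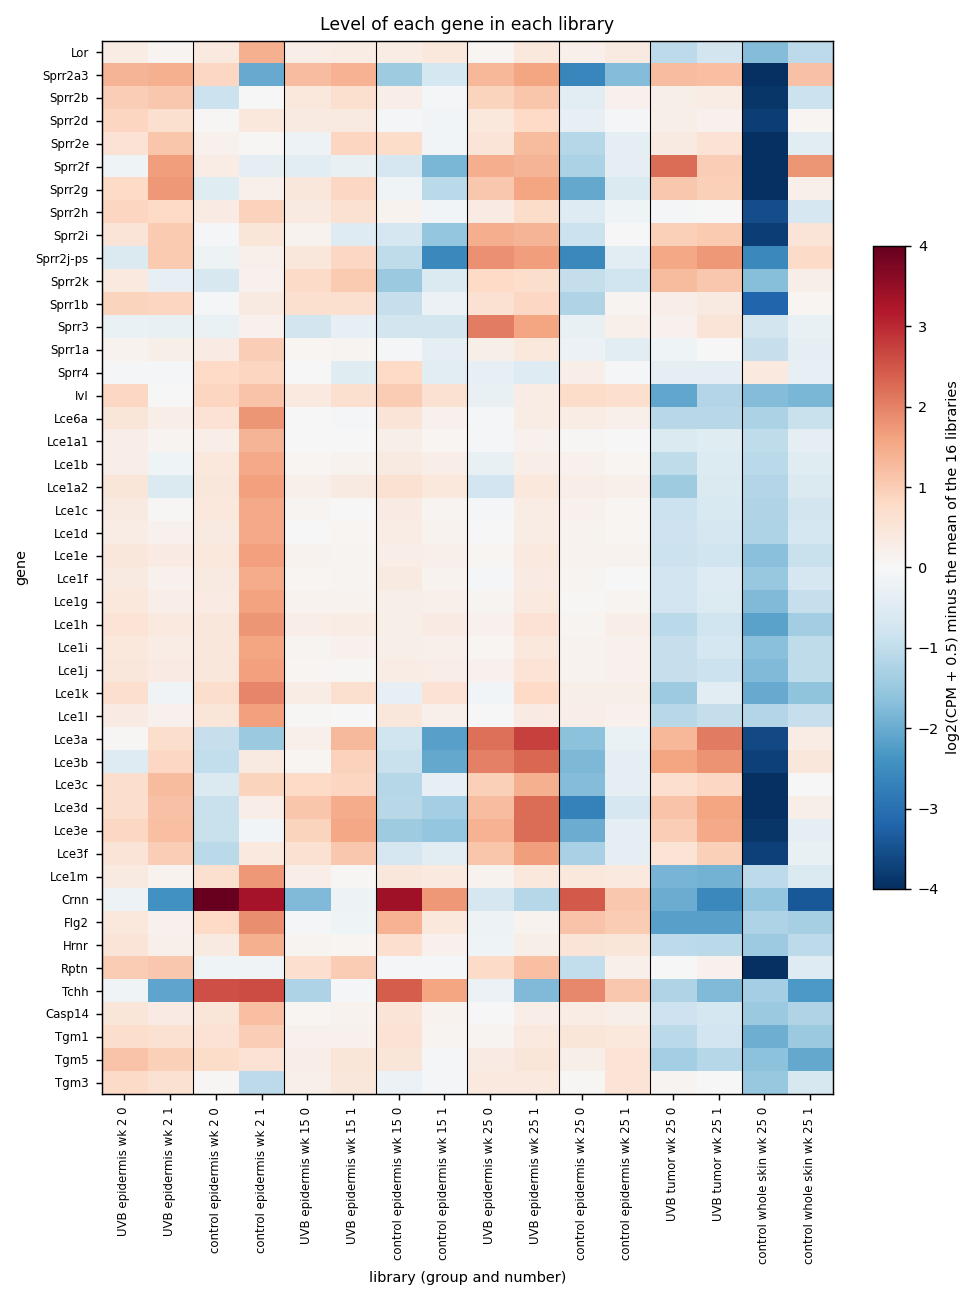
Level of each described gene in each library, as log2(CPM + 0.5) minus that gene's mean over the 16 libraries (red above it, blue below it). Genes on chromosome 3 are in chromosomal order with the other genes last. The Sprr2 and Lce3 genes are mostly red in UVB epidermis and tumor, and blue throughout whole skin control 0.

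The next question was how tumors of exposed mice compared with whole skin of control mice. No envelope gene was called: edgeR called 0 of 45 tested and 0.0% of 14661 genes, DESeq2 called 0, and 4 envelope genes had an unadjusted p under 0.05 (Flg2, Lce1m, Tgm3 and Tgm1). The summed Lce3 level was 187 and 240 CPM in tumors and 3.09 and 98.4 CPM in whole skin. The summed Sprr2 level was 494 and 450 CPM in tumors and 16.4 and 375 CPM in whole skin. Both tumors were above both whole skin libraries, which lay far apart from each other. The 2 groups did not overlap for 33 genes, 30 higher and 3 lower in tumors, where 22.5% and 12.2% of all genes did so. Lce3e had 23 and 33.4 CPM in tumors and 0.309 and 8.74 CPM in whole skin (2.64 ± 1.18, adjusted p = 0.9). Its log2 difference was 1.62 without whole skin control 0 and 6.36 without control 1. Without control 0, 17 genes were called higher and 2 lower, and without control 1, 34 and 3. In these fits the remaining whole skin library is assumed to vary like the tumors. Macrophage markers summed to 516 to 711 CPM in tumors and 284 to 462 CPM in whole skin, endothelial markers to 224 to 327 CPM in tumors and 92.7 to 211 CPM in whole skin, and T cell markers to 43.2 to 53.3 CPM in tumors and 81.1 to 216 CPM in whole skin. Basal and suprabasal keratinocyte, hair follicle, fibroblast, adipocyte and skeletal muscle sums overlapped, and no gene of these lists was called. The part of these cell types in the result was not tested.

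Flg2 had 116 and 117 CPM in tumors and 223 and 211 CPM in whole skin (-0.98 ± 0.20, adjusted p = 0.891). Lce1m had 44.5 and 43.1 CPM in tumors and 78.3 and 109 CPM in whole skin (-1.17 ± 0.25, adjusted p = 0.891). For both genes the tumors lay below both whole skin libraries. Tgm3 had 224 and 207 CPM in tumors and 72.6 and 132 CPM in whole skin (adjusted p = 0.891). Tgm1 had 161 and 201 CPM in tumors and 88.5 and 123 CPM in whole skin (0.70 ± 0.24, adjusted p = 0.891). Casp14 had 293 and 321 CPM in tumors and 184 and 226 CPM in whole skin (0.50 ± 0.22, adjusted p = 0.893). The last 3 were higher in both tumors than in both whole skin libraries.

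Against UVB epidermis of the same week, 0 envelope genes were higher in tumors and 16 of 46 lower, where 29.5% of all genes were called, 16.8% higher and 12.7% lower. They were 8 Lce1 genes, Lce6a, Lor, Ivl, Flg2, Hrnr, Tgm1, Tgm5 and Casp14, and no Sprr or Lce3 gene was among them. Tgm5 had 48.7 and 57.3 CPM in tumors and 159 and 179 CPM in UVB epidermis (-1.67 ± 0.22, adjusted p = 0.000117). Lce1m had 44.5 and 43.1 CPM in tumors and 178 and 219 CPM in UVB epidermis (-2.18 ± 0.29, adjusted p = 0.00014). The groups did not overlap for either gene, and the log2 difference of Lce1m was the lowest of the 14 Lce1 genes, the next being Lce1h (-1.33 ± 0.34). Flg2 had 116 and 117 CPM in tumors and 453 and 584 CPM in UVB epidermis (-2.15 ± 0.34, adjusted p = 0.000426). Ivl had 60.6 and 116 CPM in tumors and 211 and 320 CPM in UVB epidermis (-1.59 ± 0.32, adjusted p = 0.00228). Lce1l had 65.9 and 74 CPM in tumors and 144 and 180 CPM in UVB epidermis (-1.21 ± 0.28, adjusted p = 0.00542). Tgm1 had 161 and 201 CPM in tumors and 369 and 451 CPM in UVB epidermis, again without overlap (-1.18 ± 0.22, adjusted p = 0.0012). The count was 5 without UVB epidermis 1 and 6 without tumor 0.

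The genes that UVB raised in epidermis were not called in this comparison, where all 16 libraries set the spread. From only the 4 libraries compared, 32 genes were called lower, more than the genes outside the Sprr and Lce3 groups. The list of genes called therefore depends on the libraries fitted, and some Sprr or Lce3 genes join it. Lce3e had 23 and 33.4 CPM in tumors and 31 and 55.1 CPM in UVB epidermis (-0.61 ± 0.76, adjusted p = 0.602). Sprr2a3 had 107 and 105 CPM in tumors and 114 and 138 CPM in UVB epidermis (-0.25 ± 0.98, adjusted p = 0.88). These errors leave room for a difference in either direction. Of the 46 genes 37 did not overlap below UVB epidermis and 1, Sprr2k, did not overlap above it, where 36.7% and 40.5% of all genes did so. Markers of dermal cell types differed as well. Summed fibroblast markers were 1550 to 2040 CPM in tumors against 89.9 to 257 CPM in UVB epidermis, and skeletal muscle markers 3370 to 3540 CPM in tumors against 60.1 to 61.9 CPM in UVB epidermis. Basal keratinocyte markers were 3880 to 4080 CPM in tumors and 3060 to 3500 CPM in UVB epidermis, and suprabasal markers 2420 to 2450 CPM in tumors and 4170 to 4880 CPM in UVB epidermis. The part of these tissues in the result was not tested.

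The tissues were also compared without UVB, in controls. Whole skin over epidermis at week 25 had 0 genes higher and 24 lower, where 55.6% of all genes were called, 31.9% higher and 23.7% lower. They were 12 Lce1 genes, Lce6a, Lor, Ivl, Flg2, Hrnr, Crnn, Tchh, all 3 transglutaminase genes, Casp14 and Sprr2b. Without whole skin control 0, 4 genes were higher and 19 lower, and without control 1, 0 were higher and 40 lower. Sprr2b had 0.206 and 5.35 CPM in whole skin and 7.42 and 11.4 CPM in control epidermis (-1.90 ± 0.75, adjusted p = 0.0459). Its log2 difference was -0.82 without control 0 (adjusted p = 0.12) and -5.39 without control 1, and the call was lost under 5 of 10 alternatives. Tgm5 had 39.9 and 30.1 CPM in whole skin and 148 and 187 CPM in control epidermis (-2.25 ± 0.22, adjusted p = 7.67e-06). Ivl had 76.9 and 72.8 CPM in whole skin and 430 and 410 CPM in control epidermis (-2.49 ± 0.33, adjusted p = 5.11e-05). Tgm1 had 88.5 and 123 CPM in whole skin and 482 and 459 CPM in control epidermis (-2.16 ± 0.22, adjusted p = 1.04e-05). For each of these genes both whole skin libraries lay below both epidermis libraries. Casp14 had 184 and 226 CPM in whole skin and 634 and 606 CPM in control epidermis (-1.60 ± 0.23). Flg2 had 223 and 211 CPM in whole skin and 1160 and 1060 CPM in control epidermis (-2.35 ± 0.34). Hrnr had 222 and 292 CPM in whole skin and 864 and 851 CPM in control epidermis (-1.74 ± 0.30). Summed fibroblast markers were 806 to 1580 CPM in whole skin and 33.1 to 46.7 CPM in control epidermis. Basal keratinocyte markers were 3380 to 4070 CPM in whole skin and 2790 to 3060 CPM in control epidermis. Suprabasal markers were 1890 to 2620 CPM in whole skin and 4750 to 4980 CPM in control epidermis. Hair follicle markers were 315 to 590 CPM in whole skin and 1410 to 2440 CPM in control epidermis. The part of these cell types was not tested. The 6 Lce3 genes overlapped between the groups.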

How the data were processed

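The authors deposited 1 table of raw read counts by gene for 16 RNA-seq libraries. Per the file headers, alignments without duplicates were counted and coordinates are mm10. Per the submitters' processing notes, HISAT2, Picard, featureCounts and DESeq2 were used, with no versions given. The strand setting, the handling of multi-mapping reads and the annotation release are unknown here.

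From these counts, genes were filtered with filterByExpr (minimum count 10, minimum total 15), scaled by TMM and tested with edgeR 4.0.16 (R 4.3.3, limma 3.58.1), using the quasi-likelihood F test with Benjamini-Hochberg adjustment over all genes tested and a threshold of 0.05. Log2 values are given with a prior count of 0.125, ± a standard error worked back from the log2 value and its F statistic. UVB against control was fitted on the 12 epidermis libraries (13478 genes), as the mean over weeks with week and treatment as additive terms, and per week, between weeks and between controls as contrasts of 6 groups. Tumor against whole skin used its 4 libraries (14661 genes), and comparisons of tumor or whole skin with epidermis used all 16 (15126 genes). The fits for week 2 and for tumor over whole skin were also run on simulated counts, with an outcome not given here. Those counts had no duplicate ceiling and no library that stood apart, so they do not show how the fits perform on these libraries. Alternatives were RLE scaling, DESeq2 1.42.0, no filter, an estimate that corrects counts for the duplicate ceiling (2 read starts per base, capped at 0.98 occupancy), a replicate block, other sets of libraries and leaving out each library. Depth was 2905165 to 7959503 counts per library, and floors of 3 counts cover counting error only. The genes and the lists of partner and marker genes were chosen with earlier results of these data known. Genes described with values in the libraries compared are the 12 of smallest p over the weeks, up to 6 of smallest p in other comparisons and the most abundant of each group. Of the RNA quality list 2 genes were tested and neither was called over the weeks. Their summed level was 3880 CPM in the shallow control 1 of week 2, the highest of all libraries, and 1880 CPM in control 0. In control epidermis, week 25 over week 2, 1 of the 2 genes fell. The part of RNA quality in the results was not tested.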

Additional observations from a re-analysis of the deposited data

Results flagged for a closer look

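Sprr1a was the 1 envelope gene of 46 called for a UVB effect that differed between weeks 25 and 2, where 7.92% of all genes were called. The difference of its log2 effect, week 25 minus week 2, was 1.18 ± 0.30 (edgeR's quasi-likelihood test, adjusted p = 0.0398). Its level was 181 and 207 CPM in UVB and 130 and 116 CPM in control epidermis at week 25. At week 2 it was 169 and 183 CPM in UVB and 195 and 309 CPM in control epidermis. The UVB libraries of weeks 2 and 25 overlapped, while both controls of week 25 lay below both of week 2. The part of the controls in the difference was not tested. Without the shallow control 1 of week 2 the difference was 0.79 (adjusted p = 0.0695). The call was lost under 9 of 14 alternatives, with adjusted p-values up to 0.143.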

How the results depend on the processing

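None of the genes called, or among the 6 of smallest p in other comparisons, reversed its direction under any alternative run. The remaining genes were not checked for this. Crnn, Tchh, Flg2, Lce3a, Lce3d, Lce3e, Lce3f, Sprr2a3 and Sprr2g were called over the weeks under all 21 alternatives. Each count below is the number of envelope genes called. For the mean over weeks (24) it was 14 without week 25 and 16 without week 15. For week 2 (8) it was 23 with DESeq2, 27 without the filter and 3 from only its 4 libraries. For week 15 (3) it was 12 with DESeq2, 14 without the filter, 6 with the ceiling estimate, 1 from all 16 libraries and 8 from only its 4. For week 25 (21) it was 6 from all 16 libraries. For week 25 minus week 2 (1) it was 2 with DESeq2, 3 without the filter and 0 from all 16 libraries. For week 25 over week 2 in controls (5) it was 8 with RLE size factors, 19 with DESeq2, 22 without the filter, 12 with the ceiling estimate, 1 from all 16 libraries and 0 from only its 4. For tumor over UVB epidermis (16) it was 32 from only its 4 libraries. The cause was not tested.

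Samples of the same number did not deviate together in every pair (correlations of -0.135, -0.0306 and 0.257 at weeks 2, 15 and 25, and -0.132 for tumor with whole skin). With the number as a replicate block the count was 22 over the weeks, 8 at week 2, 6 at week 15, 21 at week 25, 0 for week 25 minus week 2, 3 for controls and 17 for tumor over whole skin, where the fit without the block made 0 calls. With crossed numbers, added after seeing the data, it was 9 at week 2 and 0 for tumor over whole skin. The settings that leave out a week were also added after seeing the data.

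Leaving out 1 library at a time gave 18 to 25 over the weeks, 0 to 25 at week 2, 0 to 6 at week 15, 4 to 14 at week 25, 0 to 15 for week 15 minus week 2, 0 to 21 for week 25 minus week 2, 0 to 23 for controls, 0 to 37 for tumor over whole skin, 5 to 16 for tumor over UVB epidermis and 22 to 40 for whole skin over epidermis. At 2 libraries per group the calls of single weeks rest on single libraries. Genes near the duplicate ceiling, the Lce1 group above all, hold values limited by that ceiling.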
